A study of Mus musculus with 2 samples.

Results

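C1q-high tumour macrophages were described here as the cells of 2 mouse EMT6 tumour libraries in which the 3 C1q genes, C1qa, C1qb and C1qc, together took at least 0.2% of a cell's unique molecular identifiers (UMIs) and at least 3 UMIs. A member also had at least 200 detected genes, under 20% mitochondrial UMIs, under 1% of its UMIs from S100a8 and S100a9, and at most 2 UMIs of the keratins Krt8 and Krt18. In all, 787 of 21985 filtered cells met this rule, 529 of 16029 in one library and 258 of 5956 in the other. Measured values of C1q, S100a8, S100a9, Krt8 and Krt18 chose the cells, so the difference of members from other cells in these 7 genes is a description and no finding.

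EMT6 is a mouse mammary carcinoma line. Its cells, 200000 per injection, were grown under the skin of BALB/c mice aged 5 to 6 weeks with an intact immune system. One library came from tumours treated with LLY-283, an inhibitor of the arginine methyltransferase PRMT5 (50 mg/kg, 3 days on and 4 days off), together with Olaparib, an inhibitor of the DNA repair enzyme PARP (50 mg/kg). It is called the dual library below, and the other, the Combo library, came from tumours given the same 2 drugs and anti-PD-1 antibody (200 µg every 3 days). Each library was 1 sample pooled from the tumours of 3 mice, no untreated library is compared here, and both groups carried the same tumour line and the same 2 drugs. Anti-PD-1, the mouse pool and the library therefore cannot be told apart, no test between the libraries was possible, and every interval below covers counting error only.

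The libraries differed in depth. The dual library held 16115 barcodes and 147214934 UMIs, and the Combo library 7542 barcodes and 162522700 UMIs. The members had a median of 2339 UMIs (505 to 13510) and 1183 genes in the dual library, and of 12415.5 UMIs (545 to 36728) and 3461 genes in the Combo library. The median mitochondrial share of members was 1.39% and 1.49%. Of the barcodes, 39 occurred in both libraries, none of them in members of both, and 2 Combo members had the barcode of some dual cell. The Scrublet doublet caller set an automatic threshold that marked 0 cells. Doublets were therefore kept, and at a threshold set to the expected rate 18 dual and 5 Combo members would have been marked. Levels are given as CPM, the UMIs of a gene summed over a set of cells and scaled to a total of 1000000 UMIs in that set.

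C1q is the recognition molecule of the classical complement pathway. Its A, B and C chains are made largely by macrophages rather than by liver, and the protein binds antibody complexes and dying cells, which macrophages then engulf. In tumours, macrophages with high C1q often also carry Csf1r, the receptor for the macrophage growth factor CSF1, and Apoe, the lipid carrier apolipoprotein E, and they lie beside macrophages rich in matrix proteases and monocytes newly arrived from blood. The 3 chain genes lie side by side on the minus strand of mouse chromosome 4 (GRCm38), C1qa at chr4:136895917-136898803, C1qc at chr4:136889804-136893065 and C1qb at chr4:136880129-136886187.

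Since the 3 chains define these cells, the genomic bases just before C1qb and C1qc are shown, read from the RefSeq promoter table (GRCm38.p6) on the minus strand, 250 bases for C1qb (chr4:136886201-136886450) and 99 bases for C1qc (chr4:136893066-136893164), cut so that they hold no exon. Capitals mark GAGGAA (or TTCCTC on the other strand), the core letters bound by the macrophage factor PU.1, and TGCTGA (or TCAGCA), a part of a Maf recognition element.
C1qb: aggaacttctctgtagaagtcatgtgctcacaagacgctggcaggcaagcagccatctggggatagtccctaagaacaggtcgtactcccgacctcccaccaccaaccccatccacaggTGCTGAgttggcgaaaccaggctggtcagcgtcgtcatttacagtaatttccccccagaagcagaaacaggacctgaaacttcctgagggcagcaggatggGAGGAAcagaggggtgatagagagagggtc
C1qc: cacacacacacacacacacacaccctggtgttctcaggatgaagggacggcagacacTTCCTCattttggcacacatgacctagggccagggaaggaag
The C1qb window held 1 match to each motif and the C1qc window 1 match to the PU.1 letters. Among 32851 RefSeq promoters, windows of the same 250 bases held the PU.1 letters in 23.3% and the Maf letters in 16.1%, and windows of 99 bases in 9.91% and 6.43%, so a match is a description of these letters and not a binding site. Spi1, which encodes PU.1, had 275 CPM in the dual and 336 CPM in the Combo library in members.

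The chain genes had near equal proportions in the members of both libraries and in keratin-positive cells within the C1q limit. In members C1qa, C1qb and C1qc gave 45.9%, 30.4% and 23.7% of C1q UMIs in the dual library and 46.2%, 28.9% and 24.9% in the Combo library. All 3 chains were detected in 450 of 529 dual members (85.1%) and in 249 of 258 Combo members (96.5%), the deeper library. Keratin-positive cells (at least 5 UMIs of Krt8 and Krt18), which should not transcribe C1q, summed to 58.0 CPM of C1q (dual, 8243 cells) and 95.8 CPM (Combo, 2784 cells), against 8915 and 9287 CPM in members. These sums were lifted by a few cells, since 47 dual and 31 Combo keratin-positive cells were past the C1q limit and held 34.1% and 57.7% of the C1q UMIs. In the keratin-positive cells within the limit the level was 38.4 and 40.9 CPM, with the chains at 42.7%, 31.9% and 25.3% and at 44.3%, 30.5% and 25.2%. A C1q UMI was found in 27.4% and 78.1% of the cells within the limit, and over all keratin-positive cells the median depth was 11610 and 49340 UMIs. Single UMIs of macrophage genes in such cells were read as background.

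Members carried the markers named with C1q. Csf1r had 415 CPM (95% Poisson interval 382 to 449.8) in the dual and 534 CPM (509 to 559) in the Combo library, against 10.9 and 22.4 CPM in all other filtered cells. Apoe had 6824 CPM (6689 to 6962) and 4559.9 CPM (4487 to 4633), against 86.3 and 152 CPM. In the like cells described below the Apoe gap was smaller. The C1q-low macrophages had 3692 and 3883 CPM of Apoe, within 2-fold of members in both libraries, and the Ly6c2 Ccr2 monocytes 1353 and 2310 CPM. After each cell was thinned to 1000 UMIs, which left out 60 dual and 7 Combo members, 32.2% and 36.3% of members had a Csf1r UMI, against 0.95% and 1.22% of keratin-positive cells. For Apoe the thinned shares were 88.5% and 81.3%, against 4.45% and 4.13%. Of the 18 genes of a macrophage identity list, all 18 passed 2-fold over other cells in both libraries, beside a background of 13.3% of 14307 genes tested. Against the like cells described below the list set the members apart less, with 4 of 18 higher than in the C1q-low macrophages (Csf1r, Cx3cr1, Aif1 and Ms4a7) and 0 of 18 higher than in the Ly6c2 Ccr2 monocytes, where Csf1r had 289 and 405 CPM. Lyz2, the macrophage lysozyme, had 13359 and 14785 CPM in members and 218 and 565 CPM in other cells. Of the markers of other blood cells, T and NK cell genes summed to 5.66 and 4.26 CPM and B cell genes to 19.8 and 16.4 CPM, but neutrophil genes summed to 409.8 and 516 CPM, led by S100a9, and monocyte genes to 431 and 629 CPM, led by Ccr2. Cells with at least 1% S100a8 and S100a9 held 65549 and 99920.3 CPM of neutrophil genes. The Ly6c2 Ccr2 monocytes described below held 2436 and 2422 CPM of monocyte genes. S100a9, limited in members by the rule, and Ccr2 helped to choose these sets, so the gaps were partly fixed and are no finding. The macrophage markers of the label were present in both libraries, beside RNA of monocyte and neutrophil genes.

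**Figure D1:**
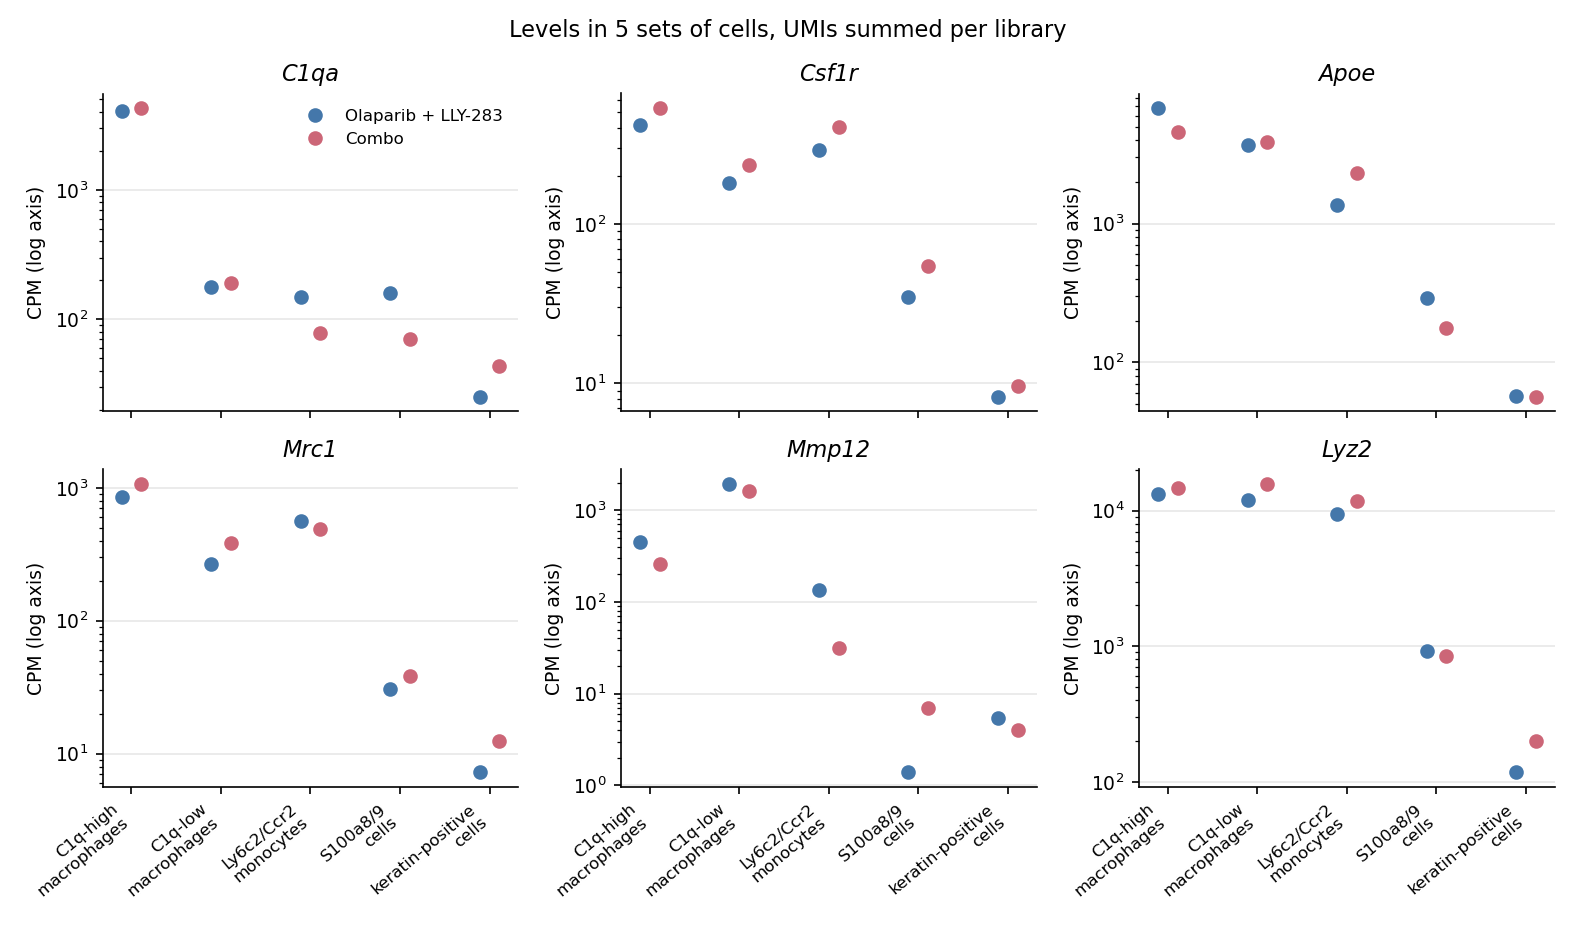
Levels of C1qa, Csf1r, Apoe, Mrc1, Mmp12 and Lyz2 in CPM (log axis) in 5 sets of cells, with 1 point per library. The members hold the highest C1qa, Csf1r and Mrc1 in both libraries, the C1q-low macrophages, chosen partly by Mmp12, the highest Mmp12 (Lyz2 also took part in choosing these macrophages and the monocytes), and keratin-positive cells lie lowest for each gene other than Mmp12, for which the S100a8 and S100a9 cells of the dual library lie lower.

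The rule's limits decided who was counted. Just inside the C1q limit (0.2 to 0.25% of UMIs) lay 28 dual and 23 Combo members with median C1q shares of 0.224% and 0.225%. Just outside it (0.15 to 0.2%) lay 15 and 12 cells with medians of 0.168% and 0.176%. Of the cells past the C1q limit, 612 in the dual and 334 in the Combo library, the keratin limit alone removed 74 and 73, and S100a8 and S100a9 alone removed 9 and 2. The keratin limit is an absolute number of UMIs, and the removed cells were deep, at medians of 9299 and 23040 UMIs with 6 and 4 keratin UMIs. A keratin UMI was also present in 180 dual members (34.0%) and in 163 Combo members (63.2%).

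Members made up 3.30% of filtered cells in the dual library (exact Clopper-Pearson interval 3.03 to 3.59%) and 4.33% in the Combo library (3.83 to 4.88%). The share was higher in the Combo library on that denominator. Among cells within the keratin limit it was 9.28% (8.54 to 10.1%) of 5700 cells and 8.81% (7.81 to 9.90%) of 2928 cells, and the intervals overlapped. The order of the libraries therefore turned with the denominator, the first of which includes the keratin-rich cells of each library, and it turned too when no keratin UMI was allowed (2.18% and 1.60% of filtered cells).

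Against all other cells together, which include the keratin-positive cells, the members were higher in resident-type, lysosomal and chemokine genes. Against the C1q-low macrophages described below, 0 lysosomal genes and 2 chemokines were past 2-fold higher, and 1 chemokine was lower. In both libraries 1908 genes were past 2-fold higher in members (13.3% of 14307 tested) and 2066 past 2-fold lower (14.4%), so a list is read against these shares. All 13 resident-type macrophage genes tested were higher, with a median log2 ratio of 6.26 in the dual and 4.92 in the Combo library, while the median over all genes was -0.13 and -0.20. Mrc1, the mannose receptor CD206, had 850.1 and 1074 CPM in members and 10.0 and 29.5 CPM in other cells. Cd163, which takes up haemoglobin bound to haptoglobin, had 198 and 194 CPM against 1.78 and 3.75 CPM. Selenop, a secreted selenium carrier, had 886 and 704 CPM against 10.4 and 20.0 CPM. Against the like cells the gaps were smaller. Mrc1 had 268 and 382 CPM in the C1q-low macrophages and 559.7 and 486 CPM in the monocytes, where the dual ratio of 0.60 on the log2 scale was within 2-fold. Cd163 had 49.6 and 75.9 CPM and 18.5 and 47.5 CPM in these sets, and Selenop 169 and 173 CPM and 215 and 191 CPM.

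Where a comparison was made in both libraries, genes were ranked by the smaller of the 2 libraries' ratios, so a gene may lead in 1 library and not in this order. The 15 first genes over other cells, among those with at least 100 UMIs and a UMI in at least 10% of members, began with the 3 C1q chains, which the rule used. The next was Ccl8, a chemokine that attracts monocytes, at 2009 and 1110.3 CPM in members and 23.9 and 19.5 CPM in other cells. A Ccl8 UMI was present in 32.1% of dual and 31.4% of Combo members. The 5 richest members held 31.4% and 50.0% of its UMIs. Ccl12, a relative of Ccl8, had 863 and 700.4 CPM against 9.24 and 19.2 CPM. The list went on with Fcrls, an Fc receptor-like scavenger (110.4 and 165 CPM), Lyve1, a hyaluronan receptor of perivascular macrophages (188 and 410.2 CPM), and Siglec1, a sialic acid receptor (53.1 and 69.6 CPM). It held 3 metabolic enzymes. Hpgds, a prostaglandin D synthase, had 65.8 and 77.2 CPM. Gatm, the first enzyme of creatine synthesis, had 616 and 797 CPM. Npl, which breaks down sialic acid, had 60.9 and 70.3 CPM, and the less known Nxpe5 had 106 and 111 CPM. All from Fcrls to Nxpe5 were at most 22.4 CPM in other cells of either library. Their gaps from the like cells were smaller. Gatm had 198 and 263 CPM in the C1q-low macrophages and 338 and 486 CPM in the monocytes. Its log2 ratios over the monocytes, 0.85 and 0.71, were within 2-fold. The others were past 2-fold over both sets in both libraries.

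Other macrophage functions were counted in the same way. All 7 Fc receptor genes, all 6 tested genes of MHC class II, 16 of 18 lysosomal genes, 14 of 16 lipid handling genes, 13 of 15 chemokines, 12 of 17 complement genes (the rule's own 3 C1q chains among them) and 10 of 14 genes of phagocytosis and cell clearance were higher in members in both libraries. Ctsb, the lysosomal protease cathepsin B, had 3348 and 3287 CPM against 369 and 467 CPM in other cells. Of the complement genes past C1q, Cfp, the positive regulator properdin, had 316 and 413 CPM and C3ar1, the C3a receptor, 430.4 and 399.6 CPM, whereas C3 itself was at 24.8 and 33.5 CPM, close to the 31.1 and 32.3 CPM of other cells. Cell cycle genes went the other way, with 0 of 16 higher and 9 lower. The proliferation gene Mki67 had 73.6 and 97.0 CPM in members and 115 and 122 CPM in other cells, which include the keratin-positive tumour cells, and after thinning a Mki67 UMI was seen in 4.69% and 5.58% of members and in 9.32% and 9.34% of keratin-positive cells.

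The first comparison was with macrophages chosen partly by the elastase gene Mmp12 that did not reach the C1q limit, 143 in the dual and 103 in the Combo library. Of 4619 genes tested in both libraries, 88 were past 2-fold higher in members (1.91%) and 33 lower (0.714%). The resident-type list gave 7 of 12 higher and 0 lower, with median log2 ratios of 1.71 and 1.25 beside 0.06 and 0.11 for all genes. Besides C1q, the first gene by the smaller ratio was Gas6, the ligand that bridges dying cells to the receptors Mertk and Axl, at 143 and 142 CPM in members and 14.6 and 12.0 CPM in these macrophages. Ednrb, the endothelin B receptor, followed with 149 and 201 CPM against 20.4 and 22.96 CPM. Lyve1 and Npl came next in this order, and then Cxcl9, a T cell attracting ligand of CXCR3. Cxcl9 had 41.1 and 66.3 CPM against 5.83 and 0.998 CPM. Cxcl9 rested on few cells, with a UMI in 12 dual and 15 Combo members, of which the 5 richest held 79.3% and 87.2% of its UMIs. Lyve1 (26.2 and 38.9 CPM there) and Npl (8.75 and 11.0 CPM there) were also lower in the C1q-low cells.

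The functions counted over all other cells mostly did not pass against these macrophages. Past 2-fold higher in both libraries were 3 of 7 Fc receptor genes, 2 of 13 genes of phagocytosis and cell clearance, 0 of 5 genes of MHC class II, 0 of 13 lipid handling genes (1 lower) and 3 of 9 complement genes, the rule's own C1q chains. None of 18 lysosomal genes was past 2-fold in both libraries, and the list summed to 24072 CPM in dual and 24705 CPM in Combo members and to 23182 and 26674 CPM in the C1q-low macrophages. Of 14 chemokines 2 were higher (Ccl12 and Ccl8) and 1 lower (Cxcl1), with sums of 16231 and 13991 CPM in members and 17396 and 15665 CPM in the C1q-low macrophages. Cells with at least 1% S100a8 and S100a9 held more chemokine RNA than either, at 32538 and 39382 CPM.

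On the other side, 5 of 12 matrix remodelling genes (Mmp12 among them) and 3 of 13 genes of hypoxia and glycolysis were lower in members. The collagenase gene Mmp13 had 29.7 and 11.9 CPM in members and 181 and 177 CPM in the C1q-low macrophages. Thbs1, the matrix protein thrombospondin 1, had 109 and 109.8 CPM against 484 and 727 CPM. Inhba, a subunit of activin, had 40.3 and 13.1 CPM against 254 and 115 CPM. All 3 were lower in members in each library, as were Gpnmb (13.4 and 13.1 against 96.2 and 55.9 CPM), the syndecan gene Sdc1 (24.8 and 29.8 against 108 and 119.8 CPM), Rgcc and the T cell costimulator receptor gene Tnfrsf9. Mmp12 was among the genes that chose the compared set and its difference is no finding. Cell cycle genes were higher in members for 5 of 13 tested, with Mki67 at 35.0 and 34.9 CPM in the C1q-low cells.

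Cells with Ly6c2 or Ccr2, the marks of blood monocytes, gave the second comparison, with 48 cells in the dual and 166 in the Combo library. Past 2-fold in both libraries, 68 of 4325 genes were higher in members (1.57%) and 31 lower (0.717%). Besides the C1q chains, Gas6, Npl, Lyve1, Ccl8 and the ficolin gene Fcna, a lectin of the complement system, led the genes higher in members. Gas6 had 6.15 and 7.40 CPM in the monocytes, Lyve1 12.3 and 51.2 CPM and Ccl8 258 and 40.1 CPM. Of 11 resident-type genes, 7 were higher. Fcna had 111 and 59.6 CPM in members and was at 0 and 6.17 CPM in the monocytes. Hmox1, the haem-degrading oxygenase, also passed, at 1581 and 492 CPM in members and 295 and 220.3 CPM in the monocytes. In the C1q-low macrophages, however, Hmox1 had 1487 and 1163 CPM, and the log2 ratios of members over them were 0.09 and -1.24.

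MHC class II, which presents antigen to helper T cells, was lower than in these monocytes, with 4 of 5 tested genes lower in members and 0 higher. The alpha chain gene H2-Aa had 185 and 226 CPM in members and 793 and 684 CPM in the monocytes, and the invariant chain gene Cd74 had 899.7 and 1089.6 CPM against 2436 and 2418 CPM. Il1b, the inflammatory cytokine interleukin 1 beta, had 315 and 412 CPM against 1242 and 1503 CPM. Vcan, versican, had 66.5 and 83.9 CPM against 449 and 559 CPM. Each of these was lower in members in both libraries. The other genes of largest ratio were Thbs1, Cytip, Plac8, Bcl2l11 and Slfn1, and all 4 tested genes of the monocyte list (Ccr2, Plac8, Vcan and Nr4a1) were lower, of which Ccr2 had chosen the set. The dendritic list summed to 86.1 and 83.9 CPM in the monocytes against 43.9 and 22.8 CPM in members, and its part in the MHC class II values was not tested.

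**Figure D2:**
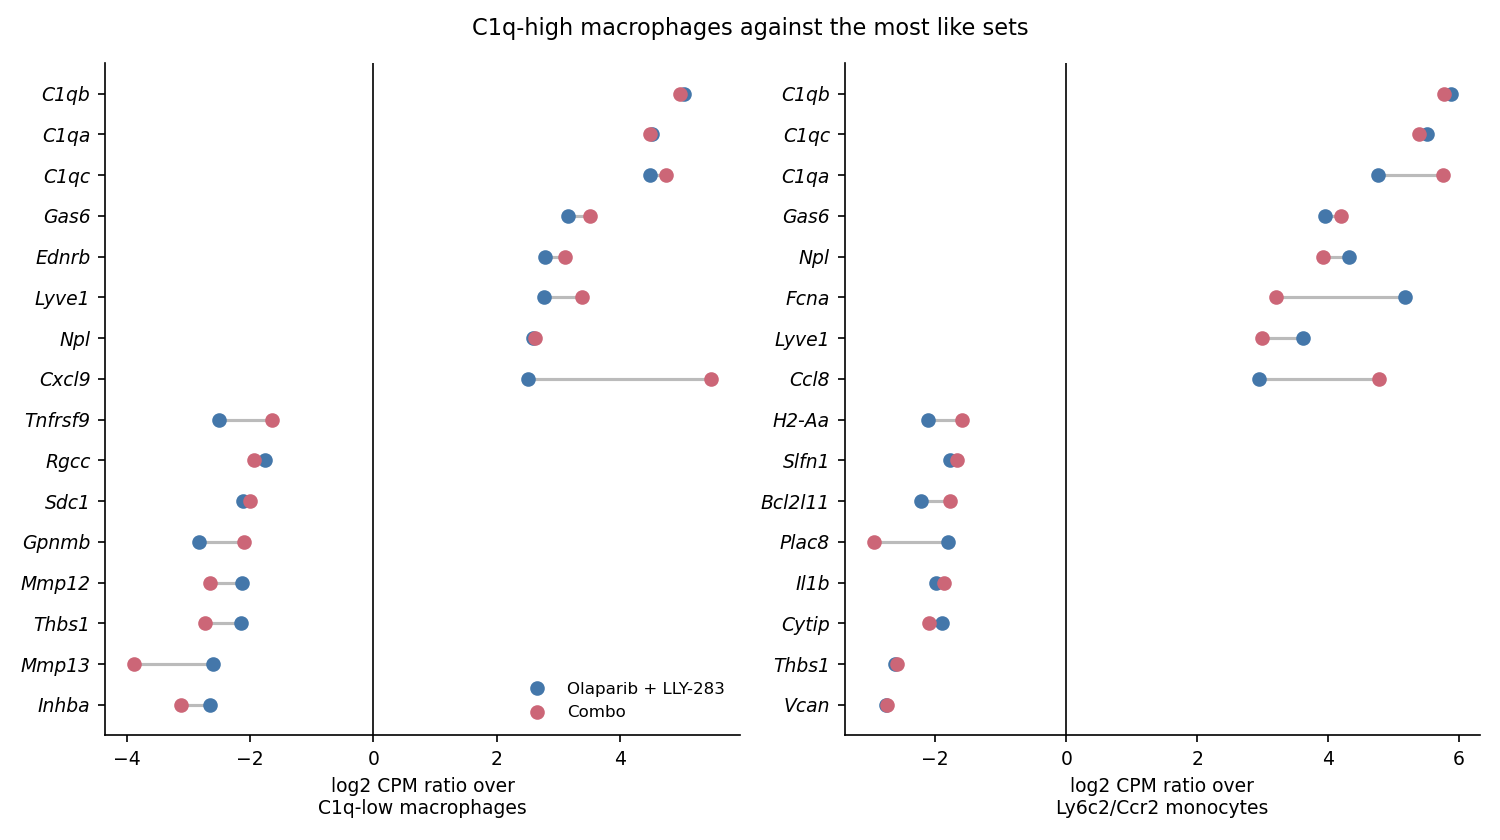
Log2 ratio of CPM in members over the C1q-low macrophages (left) and over the Ly6c2 Ccr2 monocytes (right), 1 point per library and gene. Gas6, Npl and Lyve1 lie to the right of 0 against both sets, Inhba, Mmp13 and Thbs1 to the left against the macrophages, and Vcan, Il1b and H2-Aa to the left against the monocytes.

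The members were not uniform. They were divided by C1q share into a low (0.2 to 0.5% of UMIs), a middle (0.5 to 1%) and a high band (1% or more), with 160, 186 and 183 cells in the dual and 72, 83 and 103 in the Combo library. The bands are ranges of the value that chose the cells, not cell types. Between the high and the low band, 19 of 2794 genes were past 2-fold higher in both libraries (0.68%) and 13 lower (0.465%), with medians over all genes of 0.03 and 0.04 on the log2 scale. Of 11 resident-type genes tested, 5 were higher in the high band and 0 lower. Since the bands were cut from counts of the same cells, all of this is description.

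The 5 resident-type genes higher in the high band were Cd163, Lyve1, Selenop, Gas6 and Cbr2. Cd163 went from 51.9 to 277 CPM between the low and high band in the dual library and from 109 to 229 CPM in the Combo library. Lyve1 went from 85.0 to 309 CPM and from 123 to 501 CPM. Cxcl9 went from 2.36 to 101 CPM and from 8.45 to 69.7 CPM, first of the 19 genes by the smaller ratio, but it rested on the few cells given above, and in the Combo library its middle band was higher still at 107 CPM. A Cd163 UMI was present in 74 dual and 40 Combo members, and a Lyve1 UMI in 70 and 51. The 5 richest members held 26.4% and 37.0% of the Cd163 UMIs and 22.2% and 44.2% of the Lyve1 UMIs. Mrc1 was past 2-fold in the dual library (1.24 on the log2 scale) and not in the Combo library (0.80), and of 10 tested genes of phagocytosis and cell clearance 1, Gas6, was higher. Ccl12, Hpgds and the Fc receptor genes Fcgr4 and Fcgrt were also higher in the high band in both libraries. Fcgrt, the neonatal Fc receptor, had 194 and 620.4 CPM in the dual and 245 and 514 CPM in the Combo library.

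The genes lower in the high band began with Mmp12, which also helped to choose the C1q-low macrophages and was the 1 of 7 tested matrix genes to pass, while 0 of 12 lipid handling genes and 2 of 12 genes of hypoxia and glycolysis did. Mmp12 went from 996 CPM in the low to 124 CPM in the high band in the dual library, and from 677 to 82.6 CPM in the Combo library. Cxcl3, a neutrophil attractant, went from 123 to 9.54 CPM and from 145 to 18.7 CPM. Hilpda, a hypoxia-induced lipid droplet protein, went from 524 to 212 CPM and from 437 to 143 CPM. Ifitm1 was also among the genes of largest ratio, and Il1b, the PD-L1 gene Cd274 and the hypoxia and glycolysis genes Slc2a1 and Hk2 were lower in the high band too. Cd274 had 80.3 and 36.3 CPM in the dual and 68.8 and 16.5 CPM in the Combo library.

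**Figure D3:**
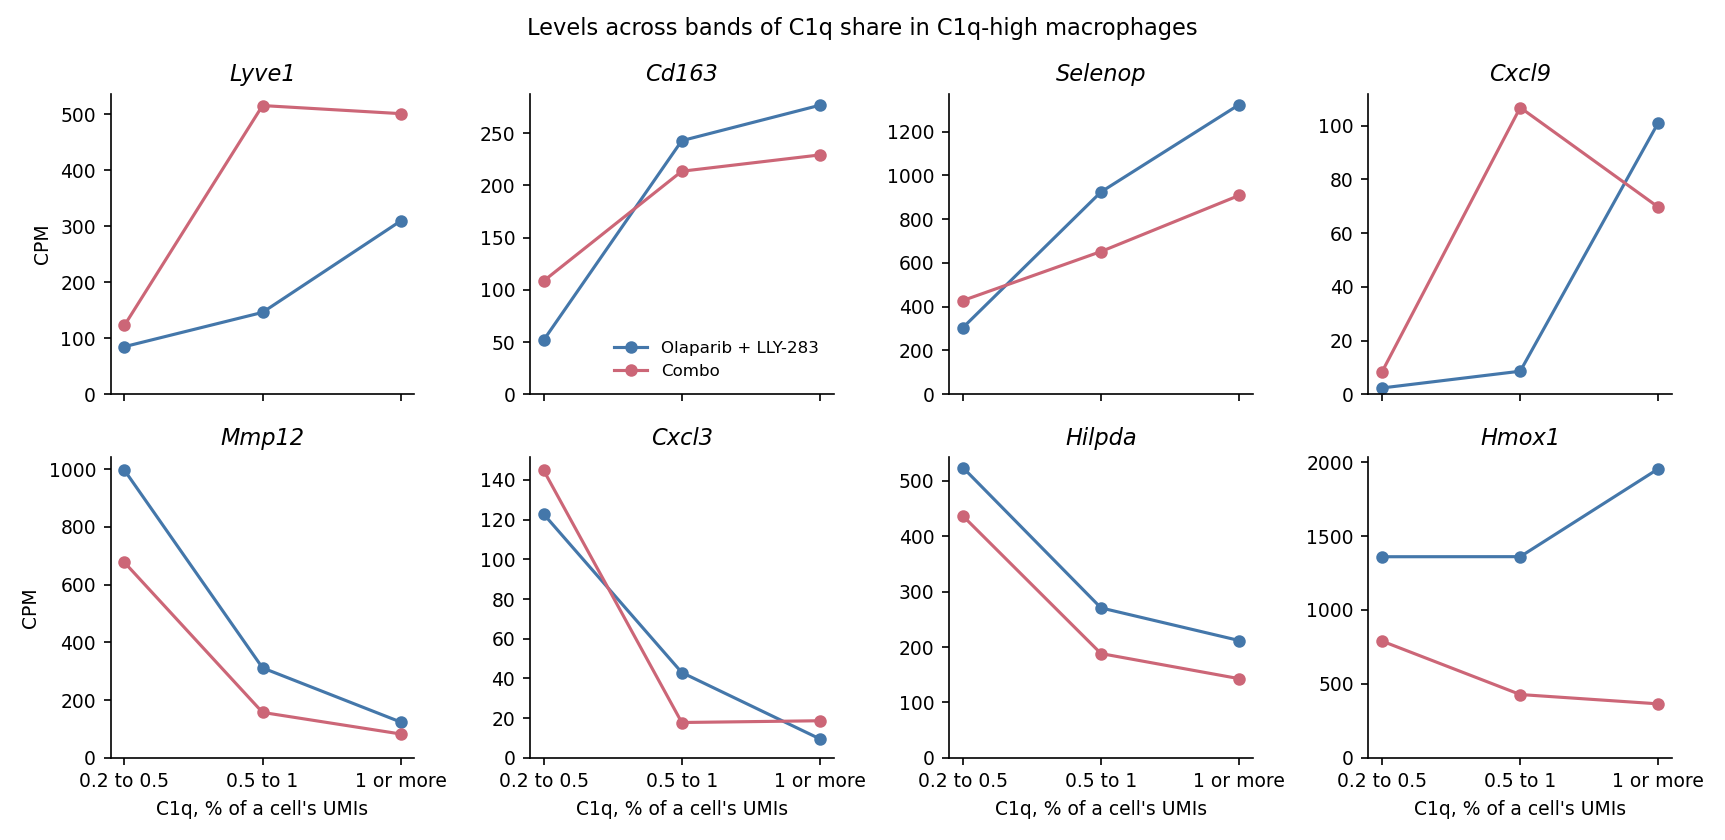
Levels in CPM of 8 genes over the low, middle and high bands of C1q share, with 1 line per library and no error bars. Lyve1, Cd163, Selenop and Cxcl9 are higher in the high than in the low band, Mmp12, Cxcl3 and Hilpda are lower, and Hmox1 separates the libraries most in the high band.

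Between the libraries, the members of the Combo library had less Hmox1 and less of the fatty acid binding proteins Fabp4 and Fabp5, while most genes of the other macrophage lists were within 2-fold. Of the 7727 genes that reached 50 UMIs in the members of both libraries together, 85 were past 2-fold higher in Combo (1.1%) and 111 lower (1.44%), and the median log2 ratio was 0.04. The balance of directions depended on the choice of cells and on the weighting. It turned to 132 higher and 92 lower with mean CPM per cell, to 80 and 56 without Scrublet doublets and to 87 and 64 with a C1q limit of 0.5%, while it stayed at more genes lower under others, such as 87 and 136 with a C1q limit of 0.1% and 74 and 85 among members with 2000 to 10000 UMIs. The exact interval of 1602 genes lay off 0, which with 1 library per group measures counting error and not a difference between treatments. Of the rule's own genes, C1qa had 4096 and 4288 CPM, C1qb 2709 and 2686 CPM and C1qc 2111 and 2314 CPM, with log2 ratios of 0.07, -0.01 and 0.13. Csf1r was higher in Combo by 0.36 on the log2 scale (interval 0.23 to 0.50) and Apoe lower at -0.58 (-0.62 to -0.54), neither past 2-fold. The Apoe ratio was -0.06 when only members with 2000 to 10000 UMIs were counted.

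Iron and haem handling was led by Hmox1, which converts haem to biliverdin, iron and carbon monoxide. Hmox1 had 1581 CPM (interval 1516 to 1648) in dual members and 492 CPM (469 to 517) in Combo members. It was lower in Combo, with a log2 ratio of -1.68 (-1.78 to -1.59), and after thinning a Hmox1 UMI was found in 41.8% and 27.5% of members. The ratio was -0.79, -1.67 and -2.42 in the low, middle and high C1q bands. In the C1q-low macrophages it was -0.36, in the monocytes -0.44, in keratin-positive cells -0.27 and in cells with at least 1% S100a8 and S100a9 -0.08, none past 2-fold. These differences between sets of cells were not tested. Over the alternatives of cell choice and weighting, the Hmox1 ratio in members lay between -2.09 and -1.15.

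Of the 9 tested genes of the iron list, Hmox1 was the 1 past 2-fold, and the median was -0.20. The ferritin heavy chain gene Fth1 had 21700.0 and 16531 CPM, at -0.39, and the light chain gene Ftl1 9969.8 and 8691 CPM, at -0.20. The haem transporter gene Slc48a1 had 141 and 79.4 CPM, at -0.83. All 3 were lower in Combo by less than 2-fold, while Cd163 was level at 198 and 194 CPM. Slc40a1, the iron exporter ferroportin, did not reach 50 UMIs. It had 33 UMIs in 21 dual members (23.4 CPM) and 4 UMIs in 3 Combo members (1.22 CPM).

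Lipid handling held 3 of 15 tested genes lower in Combo and 0 higher, with a median of -0.39. Fabp5, a fatty acid binding protein, had 701 CPM in dual and 248 CPM in Combo members, a log2 ratio of -1.50 (-1.64 to -1.37). It was lower in Combo in each C1q band, at -0.87, -2.16 and -1.51, and also in the other sets of cells, at -2.14 in the monocytes (25 and 57 UMIs), -0.88 in keratin-positive cells, -0.60 in cells with at least 1% S100a8 and S100a9 and -0.51 in the C1q-low macrophages. The differences between these sets were not tested. Lpl, lipoprotein lipase, had 55.2 and 9.73 CPM, at -2.49, and Fabp4 32.6 and 6.39 CPM, at -2.33. Both were rare, with a Lpl UMI in 28 dual and 11 Combo members and a Fabp4 UMI in 23 and 9. The lipid droplet coat gene Plin2 had 922 and 558 CPM, at -0.72, and the cholesterol exporter gene Abcg1 68.0 and 42.3 CPM, at -0.69, both lower in Combo within 2-fold.

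Interferon gamma response genes were counted as 3 of 15 higher in Combo and 0 lower, with a median of 0.40, and type I interferon response genes as 0 of 20 higher and 1 lower, with a median of -0.06. The 3 higher genes were Gbp4, Cxcl10 and Nos2. Cxcl10, a CXCR3 ligand, had 53.1 and 130.5 CPM, at 1.29, and Cxcl11, another, which is on none of the lists, 18.4 and 73.0 CPM, at 1.96 (1.40 to 2.63). Both were higher in Combo, from few cells. A Cxcl11 UMI was present in 9 dual and 24 Combo members, and the 5 richest members held 80.8% and 78.3% of its UMIs. Without those 5 members Cxcl11 was at 2.05, on 5 and 52 UMIs. The 5 richest members held 50.7% and 74.6% of the Cxcl10 UMIs, and without them the Cxcl10 ratio was 0.34. Gbp4, an interferon-induced GTPase, had 9.20 and 26.5 CPM, at 1.48, and Nos2, inducible nitric oxide synthase, 12.0 and 25.8 CPM, at 1.07, both on low counts. Nos2 was at 0.97 without the 5 members richest in it and at 0.45 with a C1q limit of 0.5%, so its call, like that of Cxcl10, did not hold, while Gbp4 was at 1.51 without its 5 richest members. Other sets of cells went both ways. The Gbp4 ratio was 1.12 in keratin-positive cells, 0.49 in cells with at least 1% S100a8 and S100a9, 0.29 in the C1q-low macrophages and -0.40 in the monocytes. The Cxcl10 ratio was -0.02, 0.84, 1.02 and 0.20 in the same order of sets. That of Cxcl11 was 0.58 in keratin-positive cells, 0.88 in the S100a8 and S100a9 cells and 3.31 in the monocytes (2 and 247 UMIs), and in the C1q-low macrophages it had 0 and 5 UMIs. The differences from members were not tested. Cxcl9, the third CXCR3 ligand, had 41.1 and 66.3 CPM, at 0.68, within 2-fold. The type I gene past 2-fold was Oas1a, at 26.2 and 4.26 CPM, a member of a family of near-identical copies whose counts are uncertain.

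The genes named here as largest between the libraries are the 10 each way among those with at least 100 UMIs over both, a minimum that leaves out rarer genes of larger ratio such as F10 towards Combo and Oas1a and Fabp4 towards dual. The others towards Combo belonged to no common list. Ifitm1 had 60.2 and 163 CPM, at 1.43, and Ccl5, a T cell and monocyte attractant, 20.5 and 55.0 CPM, at 1.40. Without the 5 members with most UMIs of the gene in each library these ratios were 0.63 and 0.65, so both passed 2-fold only through a few cells. Lyz1, a near-identical copy of Lyz2, had 6 UMIs in dual and 176 in Combo members (4.25 and 53.5 CPM, at 3.54), and 86.9% of the Combo UMIs lay in 5 cells. Nr4a2, an immediate early nuclear receptor, was spread more widely, with UMIs in 29 dual and 74 Combo members, at 24.8 and 59.3 CPM and a ratio of 1.24 (0.73 to 1.82). The remaining 3 were Tbc1d5 (retrograde transport, 1.36), Mospd3 (1.24) and the unnamed gene model Gm37033 (1.26).

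Most resident-type and antigen presentation genes were within 2-fold between the libraries. Of 13 resident-type genes 1 was higher, 1 lower, and the median was -0.01. The higher one was Lyve1, at 188 CPM in dual and 410.2 CPM in Combo members (1.12). Its ratio turned to -0.58 among members with 2000 to 10000 UMIs and to -0.24 among members with no keratin UMI. Without the 5 members richest in Lyve1 it was 0.67, within 2-fold. The Lyve1 ratio was 2.75 in keratin-positive cells (1.11 and 7.52 CPM) and 0.51 in the C1q-low macrophages. It was 1.74 in the monocytes (2 and 83 UMIs) and 2.36 in cells with at least 1% S100a8 and S100a9 (1 and 30 UMIs). The lower one was Igf1, a growth factor, at 29.0 and 13.1 CPM (-1.15). Stab1, a scavenger receptor, had 345 and 536 CPM, at 0.64, and Ccl8 had 2009 and 1110.3 CPM, at -0.86, in opposite directions within 2-fold. The 5 richest members held 31.4% of the dual and 50.0% of the Combo Ccl8 UMIs. The Ccl8 ratio was 0.44, -1.28 and -1.24 in the low, middle and high C1q bands. It was -2.49 in the C1q-low macrophages, -2.69 in the monocytes and -0.77 in keratin-positive cells. In cells with at least 1% S100a8 and S100a9 it was -1.19. The differences between these sets were not tested. All 6 tested MHC class II genes lay between 0.25 and 0.65 towards Combo and none passed 2-fold, with a summed level of 1640.04 CPM in dual and 2022 CPM in Combo members. MHC class I genes had a median of 0.02 and costimulation and checkpoint genes of 0.15, with none past 2-fold. Cd274 had 46.0 and 34.4 CPM, and the monocyte receptor Ccr2 185 and 331 CPM, at 0.83.

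**Figure D4:**
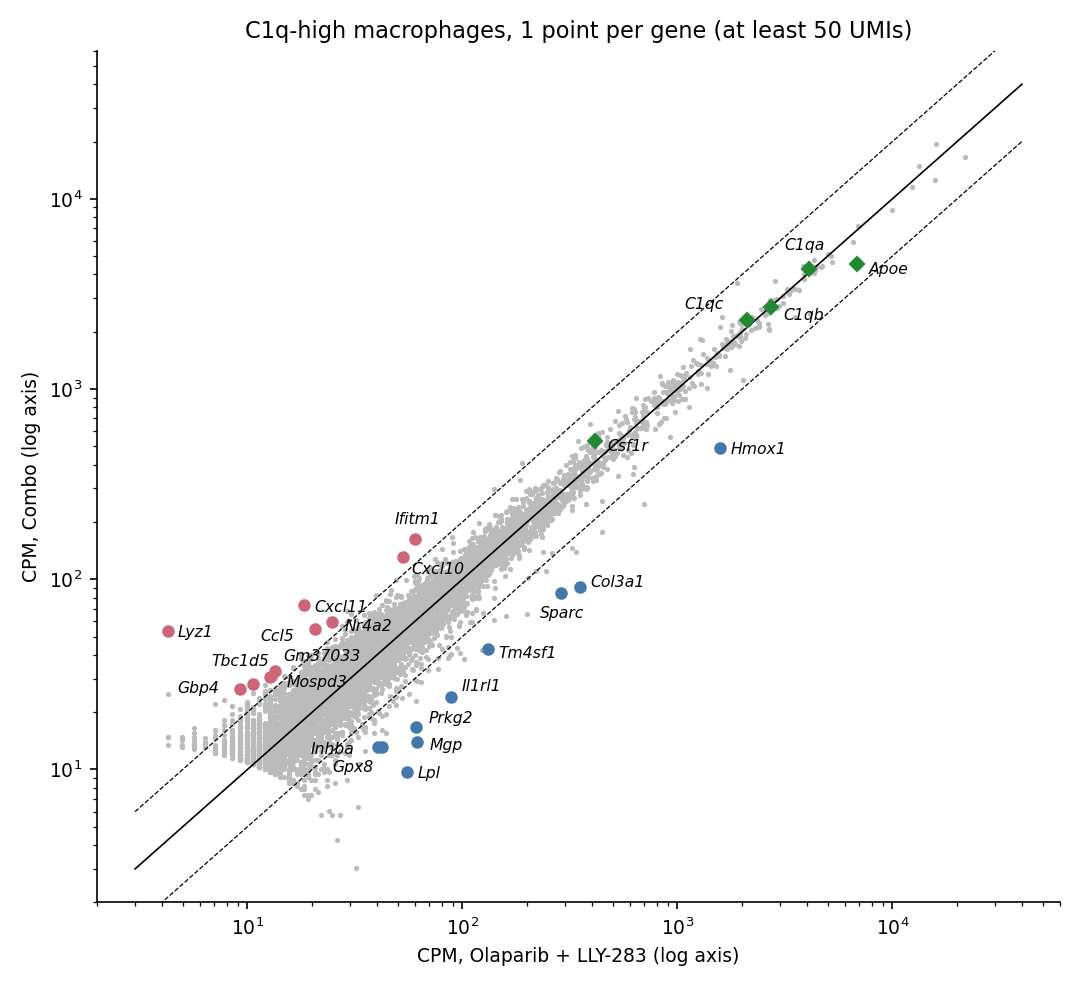
Level of each gene with at least 50 UMIs in members, in CPM on log axes, in the Combo library (vertical) against the dual library (horizontal), with a line of equality and dashed lines at 2-fold. C1qa, C1qb and C1qc lie close to the line, Hmox1 lies below the lower dashed line, and the 10 named higher genes lie above the upper one at low levels.

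Of the 10 genes of largest ratio towards the dual library with at least 100 UMIs, 8 were more abundant in keratin-positive cells than in members in both libraries. Col3a1, a collagen, had 352 CPM in dual and 90.9 CPM in Combo members (-1.95), and 457 and 456 CPM in keratin-positive cells. Sparc, a matrix protein, had 287 and 85.2 CPM (-1.75), and 1024 and 1076 CPM in keratin-positive cells. Il1rl1, the IL-33 receptor, had 88.5 and 24.0 CPM (-1.88) and 341 and 287 CPM there. The other 5 were Tm4sf1 (-1.61), Prkg2 (-1.86), Mgp (-2.13), Gpx8 (-1.69) and Inhba (-1.62). Of these 8 genes, 7 were past 2-fold lower in both like sets too. Both like sets shared the members' limit of 2 keratin UMIs, whatever the depth of a cell. They too were deeper in Combo, at medians of 1964 and 8952 UMIs (C1q-low macrophages) and 2778.5 and 9221 UMIs (monocytes). The agreement is therefore no independent support, and the part of the limit in it was not tested. In the C1q-low macrophages and in the monocytes the ratio was -1.55 and -2.002 for Col3a1, -1.98 and -1.99 for Sparc, -1.40 and -2.13 for Il1rl1, -2.41 and -2.29 for Tm4sf1, -1.99 and -2.46 for Prkg2, -2.91 and -4.12 for Mgp, and -2.02 and -2.07 for Gpx8. That of Inhba was -1.15 and -0.17. Hmox1 (254 and 211 CPM in keratin-positive cells) and Lpl (0.995 and 0.924 CPM) were higher in members than in keratin-positive cells in both libraries.

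Markers of these other cells were lower in Combo members too. All 4 tested fibroblast genes (Col3a1, Col1a1, Col1a2 and Dcn) were past 2-fold lower, but all 4 calls rested on a few cells. Without the 5 members richest in each gene the ratios were -0.72 for Col3a1, -0.51 for Col1a1, -0.80 for Col1a2 and 0.80 for Dcn, and among members with 2000 to 10000 UMIs Col1a1 was at 0.063 and Dcn at 1.17. The 3 tested tumour epithelial genes, Krt8, Sfn and Wfdc2, were past 2-fold lower as well. Krt8 is no finding, since the rule held each member to 2 keratin UMIs whatever its depth and the Combo members were deeper. Without the 5 richest members Sfn was at -0.93 and Wfdc2 at -0.95, neither past 2-fold. The fibroblast list summed to 1090.1 CPM in dual and 371 CPM in Combo members, with Col1a2 the most abundant at 445 and 176 CPM and no gene at 0. It summed to 1216 and 397 CPM in the C1q-low macrophages and 1624 and 366 CPM in the monocytes, but to 2532 and 2642 CPM in keratin-positive cells. The tumour epithelial list, which holds the rule's keratins, summed to 396 and 183 CPM, with Wfdc2 the most abundant at 202 and 101 CPM, and with Epcam and Cldn4 at 0 in dual and Krt14 and Cldn4 at 0 in Combo members. The part of both lists in the genes lower in Combo was not tested. The Hmox1 ratio among members with no UMI of Krt8 or Krt18 was -1.24 and that of Fabp5 -1.27.

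Of the other marker lists, osteoclast genes summed to 337 and 421 CPM, and the sums of neutrophil and monocyte genes, given above, were higher in Combo as well. Of the monocyte genes F10, coagulation factor X, was past 2-fold higher in Combo (4.25 and 24.9 CPM, 2.45), larger in size than the ratio of any tested fibroblast or epithelial gene. F10 rested on few UMIs, however, with 0 dual and 32 Combo UMIs left without the 5 members richest in it. The 1 tested dendritic gene, the actin bundler Fscn1, had 34.7 and 16.4 CPM (-1.08). Endothelial genes summed to 24.8 and 21.0 CPM, muscle genes to 66.5 and 53.2 CPM, mast cell genes to 2.83 and 1.22 CPM and red cell genes to 2.12 and 0.912 CPM, the last 2 lists on a few UMIs. RNA quality genes were within 2-fold, with the nuclear RNA Malat1 at 15766 and 12482 CPM.

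The remaining lists held few genes past 2-fold. None was past 2-fold among macrophage identity (18 tested), lysosome (18), phagocytosis (14), Fc receptors (7), chemokine receptors (6), cytokines (13), alternative activation (8), hypoxia (13), immediate early (14), heat shock (10), cell cycle (16), nucleic acid sensing (9) and the drug-target list (11). In the drug-target list, Prmt5, the target of LLY-283, had 24.1 and 22.2 CPM and Parp1, a target of Olaparib, 67.2 and 88.5 CPM. Cdkn1a, a p53 target, had 597 and 605 CPM, nearly level. Complement gave 1 of 12 higher, Itgax, a chain of complement receptor 4 (7.79 and 18.2 CPM, 1.18), and the matrix list gave Mmp13 (-1.32) and Sparc lower. Mmp13 had a UMI in 21 dual and 13 Combo members, and its ratio was -0.62 with a C1q limit of 0.1% and -0.64 with 0.5%, within 2-fold, while fibronectin, Fn1, stood at 1617 and 2402 CPM (0.57). Chemokines gave 1 of 15 higher, Ccl5, with a median of -0.21, and Ccl3 stood at 527 and 347 CPM (-0.60).

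**Figure D5:**
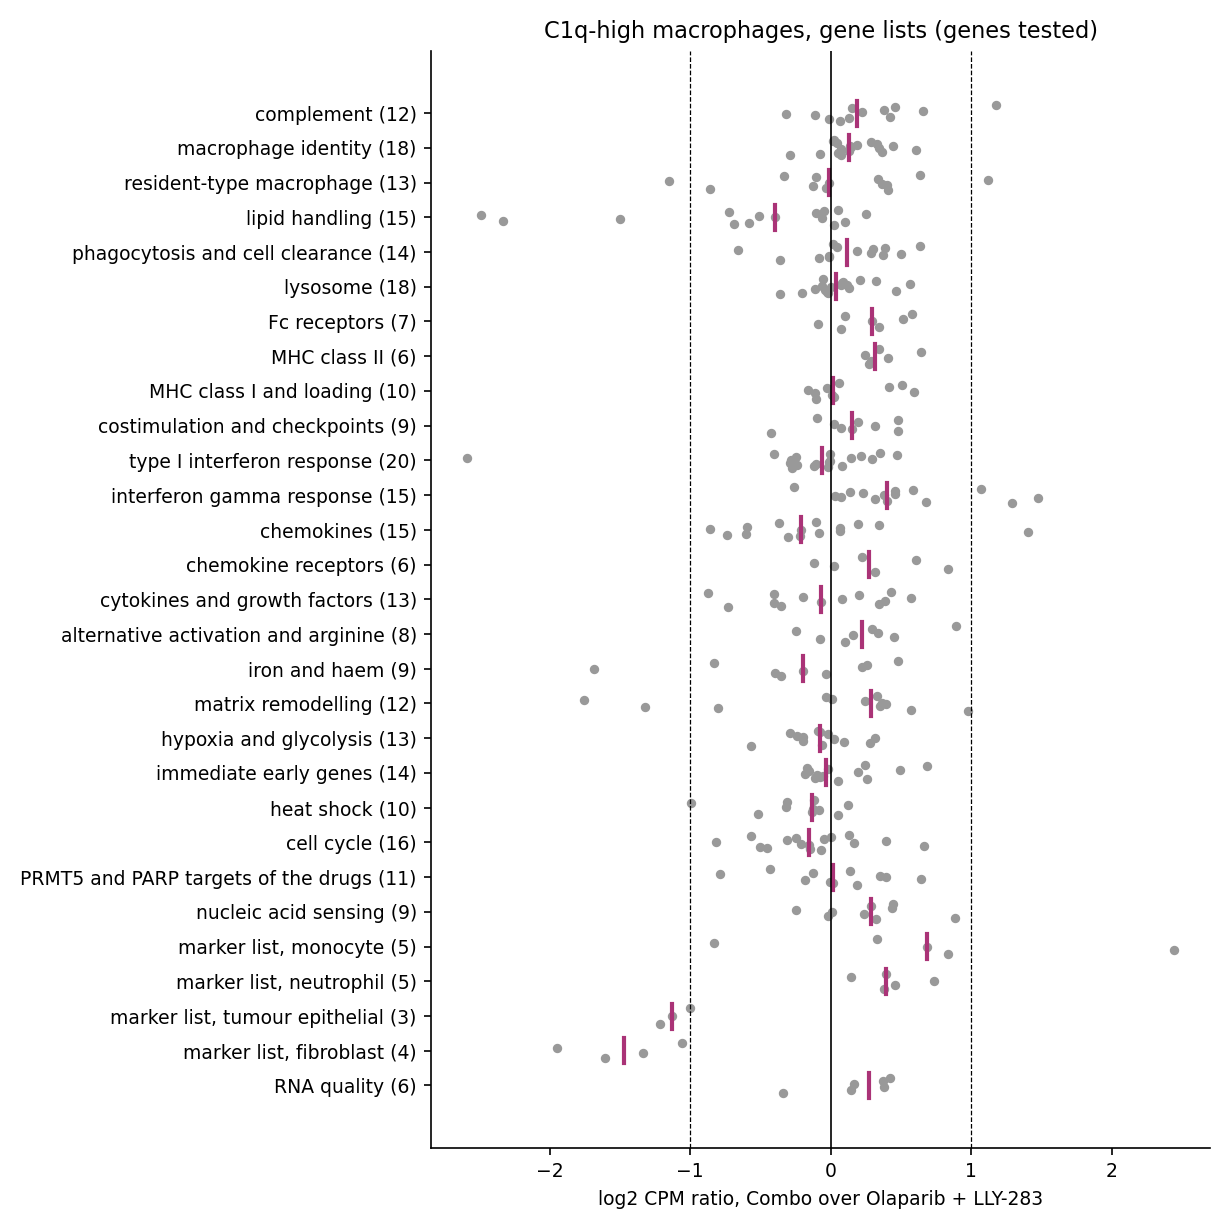
Log2 ratio of Combo over dual CPM in members for each tested gene, grouped by list, with a bar at each list's median and dashed lines at 2-fold. Fibroblast and tumour epithelial genes, among them Krt8, which the rule limits, lie below the lower dashed line, Hmox1 is the low point of the iron list, and the macrophage identity, lysosome and Fc receptor genes stay between the dashed lines.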

How the data were processed

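Single-cell RNA was measured with 10x Genomics 3′ chemistry in 2 pooled tumour libraries. The authors aligned the reads to mm10 and deposited UMI counts per gene and barcode as made by Cell Ranger (6.1.2 in the matrix headers); the submitters' processing notes also name Seurat 4.1.0. From these counts, cells with under 200 genes or with 20% or more mitochondrial UMIs were left out, members were chosen by the rule, and UMIs were summed per set and scaled to CPM. Log2 ratios had 0.5 UMI added to each sum, genes needed 50 UMIs, and past 2-fold was the call. Levels carry exact Poisson, shares Clopper-Pearson and ratios conditional binomial 95% intervals. The calls were checked on simulated counts, and the outcome of that check is not given here. The members and the 37 gene lists were chosen with earlier results of these data known. Named genes were the label's markers, the lists' genes and the genes of largest ratio in each comparison, by the smaller of both libraries' ratios where both were used (10 each way between libraries and 15 over other cells, both with at least 100 UMIs, 8 each way against each like set, 5 each way between bands). The C1q-low macrophages were chosen by Mmp12 and 1 further gene, which is not reported here, with at least 2 UMIs of Lyz2 and Cd68, and the monocytes by at least 3 UMIs of Ly6c2 and Ccr2 with at least 1 UMI of Lyz2 and none of Cd3d, Cd3e or Cd3g; both were held to the members' keratin and S100 limits. Alternatives varied the limits, doublets (Scrublet in scanpy 1.11.5), depth, scaling and weighting. Python 3.11.15 with scipy 1.17.1 was used. Symbols were used as the files pair them with gene identifiers.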

Additional observations from a re-analysis of the deposited data

Results flagged for a closer look

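Ccl5 was higher in Combo in C1q-high macrophages (20.5 and 55.0 CPM, log2 ratio 1.40) and lower in cells with at least 1% of UMIs from S100a8 and S100a9 (50.0 and 11.2 CPM, -2.15, on 36 and 32 UMIs). Dcn, the proteoglycan decorin, was lower in Combo in the macrophages (41.1 and 19.8 CPM, -1.06) and higher in keratin-positive cells (68.9 and 148 CPM, 1.11). Both values in the macrophages rested on few cells, since without the 5 members richest in the gene Ccl5 was at 0.65 and Dcn turned to 0.80, the direction of the keratin-positive cells. Neither opposite direction was tested, since each condition is 1 library.

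Some cells past the C1q limit entered no comparison as members. The keratin limit alone left out 74 such cells in the dual and 73 in the Combo library, and the limit on S100a8 and S100a9 left out 9 in the dual library. The cell filter left out 4 in the Combo library.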

How the results depend on the processing

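With a C1q limit of 0.1% the Combo share of members was 4.95%, and with 0.5% the shares were 2.30% (dual) and 3.12% (Combo). A keratin limit of 0.1% of UMIs gave 5.49% in Combo, no keratin limit 3.76% and 5.56%, and no keratin UMI, an alternative chosen after seeing the data, 2.18% and 1.60%. Leaving out Scrublet doublets gave 3.61% in the dual library, and low-keratin cells as denominator gave 9.28% and 8.81%. The 85 higher and 111 lower genes between libraries became 87 and 64 with a C1q limit of 0.5%, 151 and 149 with the keratin share limit, 143 and 190 without a keratin limit, 80 and 56 without Scrublet doublets, 56 and 50 of 4707 tested with no keratin UMI, and 132 and 92 from mean CPM per cell. More genes stayed lower than higher with a C1q limit of 0.1% (87 and 136), mitochondrial UMIs under 10% (85 and 115), at least 1000 UMIs (87 and 107), 2000 to 10000 UMIs (74 and 85), without the 5 deepest members (69 and 78), after centring (67 and 124) and with totals without mitochondrial genes (86 and 110). A minimum of 20 UMIs gave 229 higher and 291 lower, of 200 UMIs 14 and 23, and no minimum 1446 and 2561. A 1.5-fold call gave 514 and 371, and a 4-fold call 2 and 7. Against other cells, 1353 genes were lower with the keratin share limit and 1179 without a limit, and 913 were higher and 529 lower at 4-fold.

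Of 574 ratios recomputed for 41 named genes, 439 moved by no more than their counting interval, 127 moved further and 8 turned. Of 36 genes past 2-fold, 23 stayed so with the keratin share limit, 25 each without a keratin limit, among members with 2000 to 10000 UMIs and without the 5 members richest in the gene, 26 from mean CPM per cell, 28 each without Scrublet doublets and with no keratin UMI, and 29 to 36 under the other 7 settings. Over all 14 settings 419 of 504 such calls stayed. Dcn turned to 0.44 without Scrublet doublets, 1.17 in members with 2000 to 10000 UMIs, 0.50 without the 5 deepest members, 0.31 from mean CPM per cell and 0.80 without the 5 members richest in it. Lyve1 turned to -0.24 with no keratin UMI and -0.58 in members with 2000 to 10000 UMIs, where Col1a1 turned to 0.063. The causes were not tested. Removing the members richest in a gene was also chosen after seeing the data. No paired analysis was possible because each condition has 1 library. The depth of dual members limits genes of low level, and no library was replicated.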
